A study of Mus musculus with 4 samples.

Results

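The genes described here are those of the lysosome and of autophagy, chosen by symbol alone: subunits of the proton pump (Atp6v0, Atp6v1 and Atp6ap symbols), cathepsins, Lamp1 and Lamp2, the numbered Atg genes, the LC3 and GABARAP families, and Sqstm1, Tfeb, Becn1, Npc1 and Npc2. They were 66 of the 19074 genes listed, and their levels were compared between genotypes in islet beta, alpha and delta cells. The knockout (KO) libraries, KO-1 and KO-2, came from islets of Sel1LIns1 mice, in which Cre recombinase driven by the insulin gene Ins1 deletes floxed Sel1L, and the wild type (WT) libraries, WT-1 and WT-2, came from Sel1Lf/f mice, which carry the floxed alleles without Cre. All mice were C57BL/6, with an age of 7 weeks in the sample labels and 5 weeks in the series text. SEL1L is the partner of the ubiquitin ligase HRD1 in ER-associated degradation (ERAD), and the series asks what this pathway does for beta cells. Islets rested overnight in culture and were dissociated with trypsin before single-cell 3′ RNA sequencing on the 10x Genomics platform, which counts captured transcripts by unique molecular identifiers (UMIs). No library carried Cre without the floxed alleles, so Cre itself and the loss of Sel1L cannot be told apart, and the labels do not say whether libraries were separate animals, so p-values measure the spread between these 4 libraries, which may be technical.

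Lysosomes are acidified by the V-ATPase, a rotary pump whose cytosolic V1 sector hydrolyses ATP and whose membrane V0 sector moves protons, and cathepsins are the main proteases of this acid compartment. In autophagy the ATG proteins build a membrane around cytosolic cargo, proteins of the LC3 and GABARAP families are attached to that membrane and bind cargo receptors such as p62 (Sqstm1), and the closed vesicle fuses with a lysosome. The transcription factor TFEB binds the CLEAR element in promoters of many of these genes. In beta cells lysosomes and autophagy also degrade insulin granules and damaged parts of the ER, and the V-ATPase acidifies the granules themselves.

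The core of the CLEAR element, the palindrome TCACGTGA, which contains the E-box CACGTG, was searched on RefSeq promoter windows of build GRCm38.p6 that run from 250 bases before to 50 bases after a RefSeq transcript start, of which a gene can have several. Of the 66 genes, 49 had a window, and TCACGTGA was present in 6 of these (12.2%: Atg3, Atp6v0d1, Atp6v0e, Atp6v1a, Ctsa and Ctsd), against 1.12% of the windows' 27025 genes. CACGTG alone was present in 13 of the 49 (26.5%), against 8.09% of the 27025 genes. The windows of a V1 subunit (Atp6v1a), 2 V0 subunits (Atp6v0d1 and Atp6v0e) and a cathepsin (Ctsd) are shown 5′ to 3′. Capitals mark TCACGTGA. They were picked because they hold the same element while Atp6v0e rose and the rest fell in KO beta cells relative to the median gene. Counted per cell, all of them were higher in KO beta cells (log2 0.50 for Atp6v1a, 0.64 for Atp6v0d1, 1.33 for Atp6v0e and 0.68 for Ctsd). The windows of Atp6v0e, Atp6v1a and Ctsd belong to starts inside the GENCODE gene, downstream of its outermost start. They lie at chr16:44139210-44139509 (minus strand), chr8:105566015-105566314 (minus strand), chr17:26676146-26676445 (plus strand) and chr7:142387778-142388077 (minus strand), in the order Atp6v1a, Atp6v0d1, Atp6v0e and Ctsd.
Atp6v1a: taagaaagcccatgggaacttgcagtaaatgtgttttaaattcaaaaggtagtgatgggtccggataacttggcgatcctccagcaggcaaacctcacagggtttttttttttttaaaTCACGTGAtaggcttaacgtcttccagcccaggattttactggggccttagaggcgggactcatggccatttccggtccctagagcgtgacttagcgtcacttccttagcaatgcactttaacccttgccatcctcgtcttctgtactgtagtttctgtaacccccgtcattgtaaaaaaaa
Atp6v0d1: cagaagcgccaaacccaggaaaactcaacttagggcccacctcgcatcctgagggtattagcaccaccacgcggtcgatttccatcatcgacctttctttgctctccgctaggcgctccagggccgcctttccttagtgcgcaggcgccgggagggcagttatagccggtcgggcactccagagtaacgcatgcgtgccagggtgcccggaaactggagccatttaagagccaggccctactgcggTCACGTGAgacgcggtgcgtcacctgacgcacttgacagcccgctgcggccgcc
Atp6v0e: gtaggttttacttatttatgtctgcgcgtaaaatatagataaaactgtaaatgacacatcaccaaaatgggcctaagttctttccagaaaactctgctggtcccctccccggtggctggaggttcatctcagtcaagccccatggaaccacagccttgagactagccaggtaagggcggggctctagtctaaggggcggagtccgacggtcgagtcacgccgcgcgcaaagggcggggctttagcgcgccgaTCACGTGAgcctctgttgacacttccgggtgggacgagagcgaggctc
Ctsd: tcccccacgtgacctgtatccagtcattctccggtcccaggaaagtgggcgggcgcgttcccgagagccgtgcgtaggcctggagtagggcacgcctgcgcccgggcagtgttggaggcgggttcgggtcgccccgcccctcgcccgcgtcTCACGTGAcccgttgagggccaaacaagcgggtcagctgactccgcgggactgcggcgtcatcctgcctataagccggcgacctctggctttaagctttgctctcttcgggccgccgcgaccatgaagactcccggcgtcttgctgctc

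Beta cells were those with at least 10% of UMIs from Ins1 and Ins2, alpha cells those with at least 3% from Gcg and under 5% from insulin, and delta cells those with at least 3% from Sst and under 5% from insulin. The gates held 2381 and 1365 beta cells in the KO libraries against 3533 and 3473 in the WT libraries, 761 and 330 against 1116 and 939 alpha cells, and 308 and 229 against 450 and 526 delta cells. Each library held 99156230 to 228515309 UMIs in all. Beta cells of KO libraries had a median of 43778 and 51101 UMIs, of which insulin took 40.9% and 44.6%, and those of WT libraries 46575 and 49429 UMIs, of which insulin took 67.5% and 68.3%. Counted per cell, 14298 of 15026 genes tested were above WT in KO beta cells, and the median gene stood 0.92 higher in log2, against 0.78 in alpha and 0.71 in delta cells. Every log2 change below is relative to the median gene (TMM scaling), and a gene that fell on this scale may still have risen per cell, by less than the median gene. The median mitochondrial share was 3.65% and 3.57% in KO against 1.75% and 1.71% in WT beta cells. It was also higher in KO alpha (3.73% and 3.74% against 2.48% and 2.47%) and delta cells (3.73% and 3.73% against 2.67% and 2.56%). The 5 markers of pancreatic polypeptide cells summed to 21945 and 12384 against 2544 and 2316 scaled CPM in beta cells. Scaled CPM is the UMI count relative to library size after TMM scaling. In alpha cells the sums were 84168.5 and 53178 against 59411.5 and 54373. In delta cells they were 157960 and 140208 against 170623 and 166612. The 8 delta cell markers summed to less there (100938 and 105868 against 129365 and 129388). The part of these in the results was not tested, nor was a limit on Ppy in alpha or delta cells. All 10 beta cell markers were detected in beta cells of each library, and all 10 were lower in KO beta cells. The 10 include insulin, which defines the beta gate, so its detection was fixed by that rule. Sel1l itself had a log2 change of -0.51 in KO beta cells (SE 0.0642, adjusted p = 0.00164 in edgeR), or 0.42 per cell, and was not called in alpha (0.28, adjusted p = 0.0607 by edgeR) or delta cells (0.09, adjusted p = 0.716 by edgeR); reads of the 3′ end may lie outside the deleted exons, which the labels do not give, so these counts do not check the deletion.

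KO beta cells had lower levels of many pump, cathepsin and lysosome membrane genes relative to the median gene; per cell, and as a share of all UMIs, only Atp6ap2 was called lower. Of the 58 members with enough counts to test in beta cells, 26 were lower and 11 higher in KO than in WT beta cells, and 21 were not called (edgeR's quasi-likelihood test, Benjamini-Hochberg adjusted over all genes). All genes tested gave 20.2% lower and 19.1% higher, 39.2% called in all, so the members' share of higher calls (19.0%) was at the background and their share of lower calls (44.8%) was above it. With library size only, 50 were higher and 1 lower (84% and 1.87% of all genes, 85.9% called). The median log2 change of the members was -0.22, against 0.005 for all 15026 genes. Counted per cell, 50 members were higher and 1 lower, where 85.1% of all genes were higher and 2% lower (87.1% called), with a member median of 0.70 against 0.92 for all genes, and the sign of 22 of the 26 falls turned. All 11 rises were called under TMM scaling, with library size only and per cell, and so was 1 fall, that of Atp6ap2. Most genes were called higher with library size only (84%) and per cell (85.1%). The agreement is therefore little independent support for the rises, and their contrast with the falls carries little weight. Without KO-1 the counts were 14 lower and 2 higher (9.43% and 10.1% of all genes), and without KO-2 11 lower and 3 higher (7.34% and 7.83% of all genes); without WT-1 there were 25 lower and 7 higher.

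**Figure D1:**
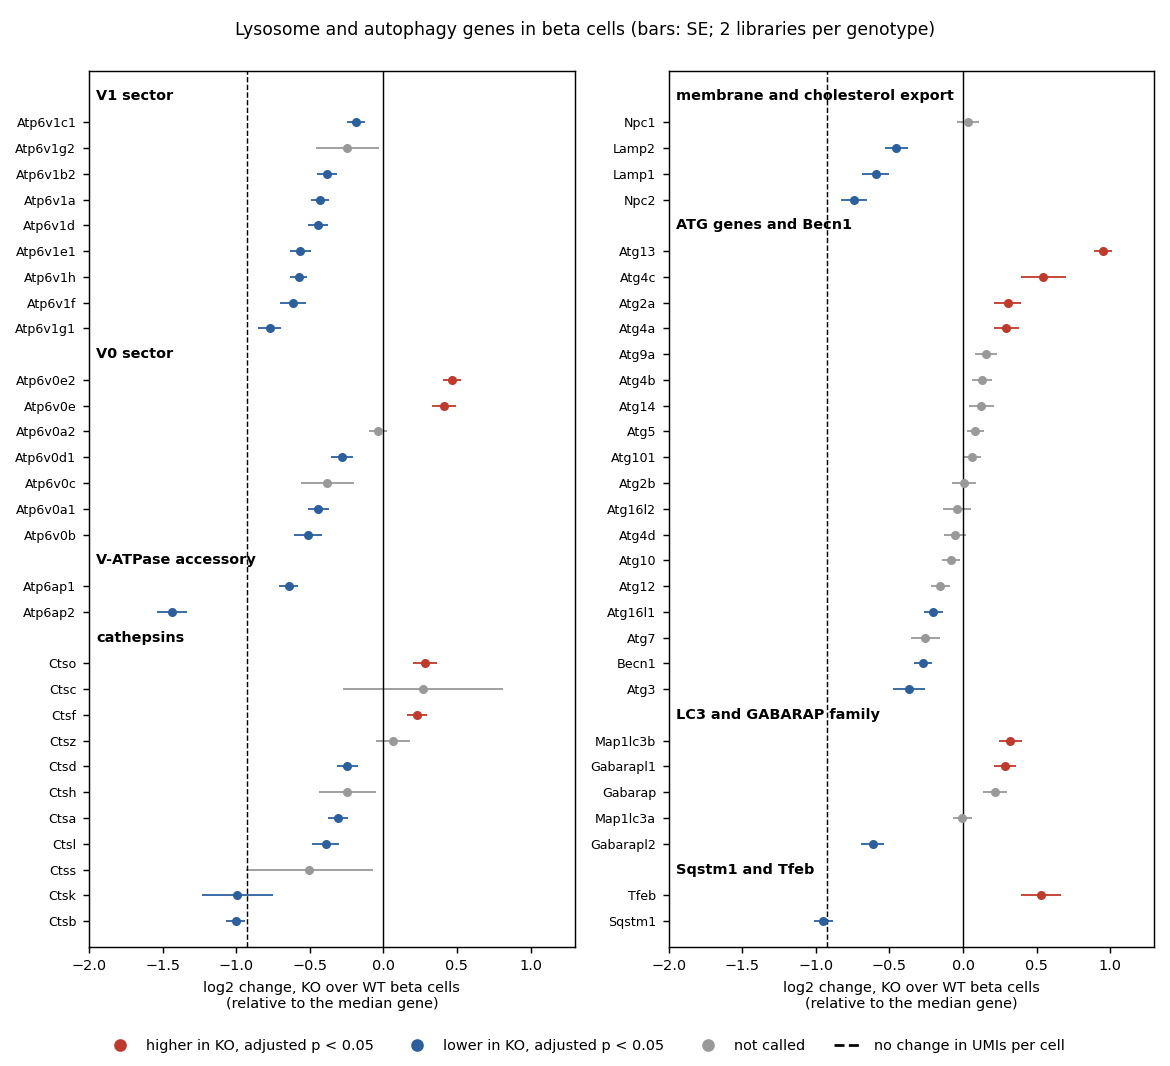
Log2 change of KO over WT beta cells for the 58 members tested, by role, with SE bars (2 libraries per genotype); red points were called higher, blue lower and grey not called at an adjusted p under 0.05. The dashed line, 0.92 below 0, is where UMIs per cell are equal, so points right of it were higher per KO cell, and every V1 subunit lies between that line and 0.

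The V1 sector, the ATP-splitting part of the pump, was lower relative to the median gene: 8 of 9 tested subunit genes fell, none rose, and the ninth, Atp6v1g2, stood at -0.24 (adjusted p = 0.398 by edgeR). None was higher at an unadjusted p under 0.05 or by limma-voom or DESeq2. Per cell the direction turned, and 8 of the 9 were called higher. Atp6v1g1, a subunit of the peripheral stalk (chromosome 4, 63544772 to 63550750, plus strand), had 155 and 147 scaled CPM in KO beta cells, against 247 and 268 in WT beta cells. Atp6v1e1, also of the stalk, had 125 and 121 against 186 and 178, and Atp6v1h, the regulatory subunit, had 20.5 and 20.7 against 30.4 and 31.1. The libraries of the genotypes did not overlap in these 3 genes. With 2 libraries per genotype and genes named by small p, absence of overlap adds no support to a call, here or below. Their log2 changes were -0.77 (SE 0.0793, adjusted p = 0.000797), -0.56 (SE 0.0703, adjusted p = 0.00153) and -0.57 (SE 0.0573, adjusted p = 0.000736) in edgeR, in the order named, and each was called whichever library was left out. In UMIs per cell they were level or higher in KO beta cells, with 10.0 and 10.5 against 8.87 and 9.70 for Atp6v1g1 (log2 0.15, not called) and 1.33 and 1.48 against 1.09 and 1.12 for Atp6v1h (log2 0.35). The other falls ran from -0.61 (Atp6v1f) to -0.19 (Atp6v1c1), with Atp6v1a, the catalytic subunit, at -0.43 and Atp6v1b2 at -0.39. Without KO-1 6, and without KO-2 4, of the 9 were called lower.

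The V0 sector split. Both genes of the small e subunit, a membrane protein of the V0 sector, rose in KO beta cells. The subunits a1, b and d1 fell relative to the median gene. Atp6v0e (chromosome 17, 26663231 to 26699647, plus strand) had 231 and 235 scaled CPM in KO against 166 and 184 in WT beta cells (log2 change 0.41, SE 0.0804, adjusted p = 0.00808 in edgeR). Atp6v0e2, its paralog (chromosome 6, 48537615 to 48541801, plus strand), had 39.1 and 40.3 against 29.2 and 28.3 (0.47, SE 0.0601, adjusted p = 0.00171 in edgeR). The KO libraries were above both WT libraries in each gene, and per cell the rises were 1.33 and 1.39. Atp6v0b, of the proton-carrying ring, had 188 and 178 scaled CPM in KO against 242 and 281 in WT beta cells (-0.51, adjusted p = 0.00638 in edgeR, 0.41 per cell). Atp6v0a1, of the stator, stood at -0.44 and Atp6v0d1, which joins the sectors, at -0.28, and per cell they were 0.48 and 0.64. Atp6v0a2 was level (-0.04), and Atp6v0c, whose counts were low (0.640 and 0.665 against 0.837 and 0.860 scaled CPM) and may be shared with the pseudogenes Atp6v0c-ps1 and Atp6v0c-ps2, was not called. The call of Atp6v0e was lost without KO-1 or KO-2 (log2 range over the libraries left out 0.33 to 0.48), that of Atp6v0a1 without KO-1 (-0.50 to -0.37), that of Atp6v0b without KO-2 (-0.62 to -0.40) and that of Atp6v0d1 without either KO library (-0.36 to -0.20).

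The largest fall among the members was that of an accessory subunit of the pump. Atp6ap2, the (pro)renin receptor, which helps the V-ATPase assemble (chromosome X, 12587801 to 12617049, plus strand), had 84.7 and 79.2 scaled CPM in KO beta cells and 202 and 241 in WT beta cells. That was 2.70-fold lower (log2 change -1.43, SE 0.103, adjusted p = 0.00026 in edgeR). It was the only member called lower per cell as well, with 5.50 and 5.67 UMIs per KO beta cell against 7.24 and 8.72 per WT beta cell (log2 -0.51, adjusted p = 0.000175 in edgeR, scaling by cells). Its partner Atp6ap1, a V0 assembly and sorting subunit, had 36.9 and 35.1 against 55.0 and 57.5 scaled CPM (-0.64, SE 0.0649, adjusted p = 0.000757 in edgeR) but 2.40 and 2.51 against 1.97 and 2.08 UMIs per cell (0.28). Both were called lower whichever library was left out, over ranges of -1.56 to -1.30 and -0.68 to -0.60.

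**Figure D2:**
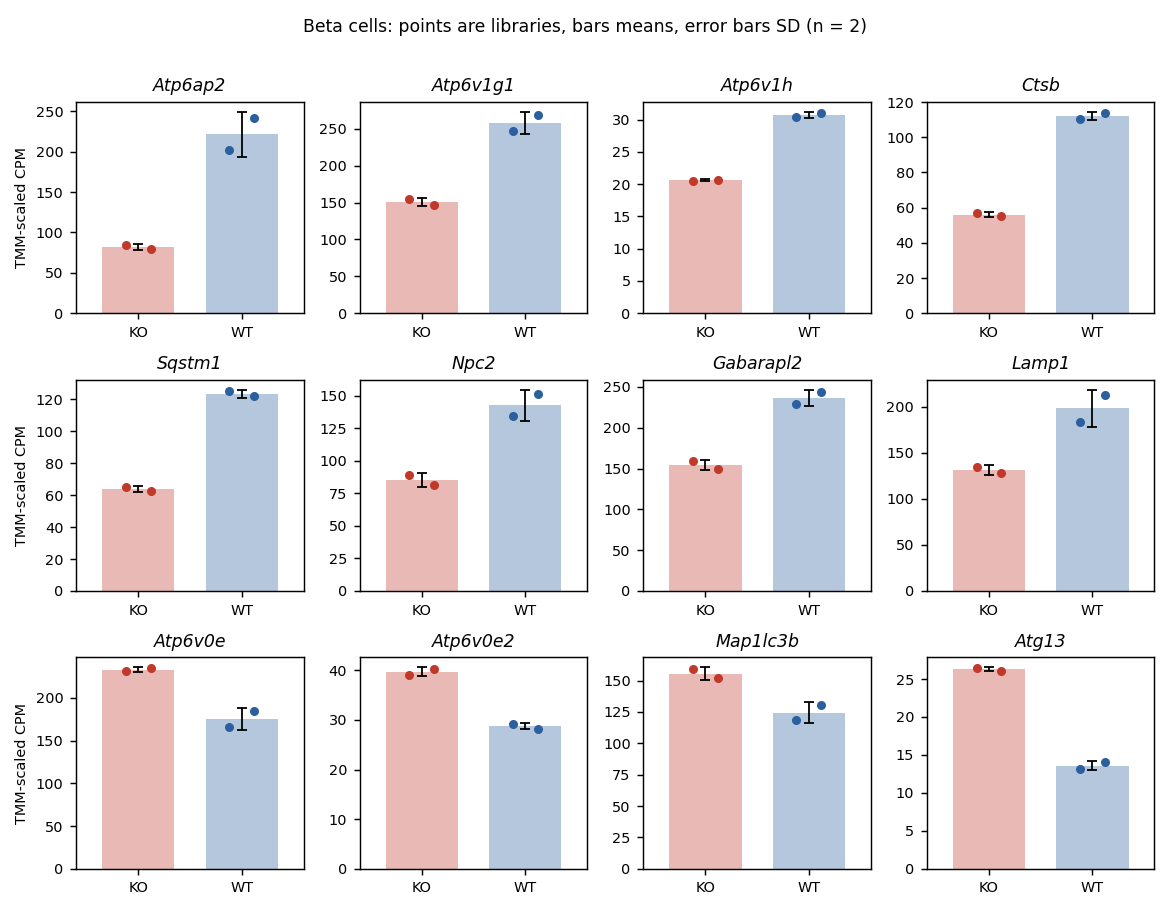
TMM-scaled CPM in beta cells for 12 members; points are libraries, bars means and error bars SD (n = 2), KO at the left. The KO libraries lie below both WT libraries in Atp6ap2, Atp6v1g1, Atp6v1h, Ctsb, Sqstm1, Npc2, Gabarapl2 and Lamp1 and above them in Atp6v0e, Atp6v0e2, Map1lc3b and Atg13; per cell only Atp6ap2 of the 8 was called lower.

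Of 11 tested cathepsin genes 5 fell and 2 rose relative to the median gene. Ctsb, a cysteine protease (chromosome 14, 63122462 to 63145923, plus strand), had 56.9 and 55.1 scaled CPM in KO against 111 and 114 in WT beta cells, 2-fold lower (log2 change -1.0, SE 0.0656, adjusted p = 0.000205 in edgeR), and this call did not depend on any 1 library. Per cell it was nearly level, with 3.70 and 3.94 UMIs per KO cell against 3.97 and 4.11 per WT cell (log2 -0.08, adjusted p = 0.543 in edgeR). Macrophages express Ctsb, and cells with high macrophage markers in the same libraries held 5199 and 4949 CPM of it in KO against 5306 and 4815 CPM in WT libraries. The 12 macrophage markers summed to 28.9 and 24.8 scaled CPM in KO against 48.7 and 41.8 in WT beta cells, with no marker at 0 and 2 of 12 lower. At the ratio of those cells that would carry 5.54 and 4.65 scaled CPM of Ctsb in KO against 10.7 and 8.01 in WT beta cells. The same ratio gives more Ctss (3.68 and 2.75 against 8.73 and 7.14) than beta cells held (1.34 and 0.962 against 2.41 and 0.892). Ctsl, another cysteine protease, had 185 and 177 against 221 and 254 scaled CPM (-0.39, adjusted p = 0.0148 in edgeR, 0.53 per cell). Ctsa, the protective protein of lysosomal glycosidases, stood at -0.31 (adjusted p = 0.012 in edgeR, 0.61 per cell) and Ctsd, the aspartic protease whose promoter window is shown above, at -0.24 (adjusted p = 0.0312 in edgeR, 0.68 per cell). Ctsk also fell, from few counts (43 and 29 UMIs in KO against 68 and 76 in WT beta cells). The cysteine proteases Ctso and Ctsf rose: Ctso had 44.4 and 38.5 scaled CPM in KO against 33.9 and 34.1 in WT beta cells (0.29, adjusted p = 0.0311 in edgeR) and Ctsf 31.3 and 28.9 against 25.2 and 26.2 (0.23, adjusted p = 0.0351 in edgeR). Each rise was called in only 1 of the 4 fits that leave out a library: Ctso was lost without KO-1, WT-1 or WT-2 (0.19 to 0.40), and Ctsf without KO-1, KO-2 or WT-1 (0.18 to 0.29). Ctsa and Ctsl were lost without KO-1 or KO-2 (-0.37 to -0.25 and -0.49 to -0.29), where Ctsb was the only cathepsin called lower.

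Membrane and cholesterol export genes fell in 3 of 4 cases relative to the median gene, and none rose, also not at an unadjusted p under 0.05 or by limma-voom or DESeq2. Npc2, the soluble carrier that takes cholesterol from the lysosome lumen, had 89.4 and 81.4 scaled CPM in KO against 135 and 151 in WT beta cells (-0.74, SE 0.0884, adjusted p = 0.00132 in edgeR). Its membrane partner Npc1 was level, with 6.21 and 6.35 against 6.14 and 6.11 (0.04, SE 0.0744). Lamp1 and Lamp2, the heavily glycosylated proteins that line the lysosome membrane, had 135 and 127 against 184 and 212, and 87.6 and 91.5 against 116 and 129, with log2 changes of -0.60 (adjusted p = 0.00331) and -0.45 (adjusted p = 0.00494) in edgeR. The genotypes did not overlap in any of the 3 that fell. Per cell these 3 stood at 0.18, 0.33 and 0.47, so the direction of the group turned. Lamp1 lost its call without KO-2 (-0.70 to -0.49) and Lamp2 without either KO library (-0.53 to -0.38), and without KO-2 only Npc2 was called.

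Of 18 tested ATG genes with Becn1, which start and extend the autophagosome, 4 rose (22.2%), 3 fell (16.7%) and 11 were not called, shares near the 19.1% and 20.2% of all genes, and their median was 0.03. Atg13, a subunit of the ULK1 kinase complex that opens autophagy (chromosome 2, 91674618 to 91710576, minus strand), had 26.5 and 26.1 scaled CPM in KO beta cells, against 13.2 and 14.0 in WT beta cells, 1.93-fold higher (log2 change 0.95, SE 0.0618, adjusted p = 0.000204 in edgeR). In UMIs this was 1.72 and 1.87 per KO cell against 0.472 and 0.507 per WT cell, a per-cell log2 change of 1.87, and the call did not depend on any 1 library. Atg101, its partner in the same complex, was level (0.06). Atg4c and Atg4a, proteases that prepare LC3 and GABARAP proteins for their lipid anchor, stood at 0.55 (5.83 and 5.12 against 3.21 and 4.31 scaled CPM, adjusted p = 0.0292 in edgeR) and 0.29 (5.06 and 5.02 against 4.02 and 4.21, adjusted p = 0.0343 in edgeR), while their relatives Atg4b and Atg4d were not called. Reads of Atg4a may be shared with Atg4a-ps. Atg2a, a lipid carrier, was 0.30 higher. The genes that fell relative to the median gene were Becn1, of the lipid kinase complex (-0.27), and Atg3 and Atg16l1 of the conjugation machinery (-0.37 and -0.20), and per cell they stood at 0.65, 0.55 and 0.72. Without KO-1 or KO-2 only Atg13 of these 7 was called; Atg4a and Atg4c were lost without WT-1 too (0.26 to 0.33 and 0.35 to 0.78), Atg3 without WT-2 too (-0.53 to -0.19), Atg16l1 without each library (-0.23 to -0.17), and Becn1 ran from -0.31 to -0.24.

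The LC3 and GABARAP genes, whose products coat the autophagosome, moved in different directions. Map1lc3b had 159 and 152 scaled CPM in KO against 119 and 130 in WT beta cells (0.32, SE 0.0779, adjusted p = 0.0181 in edgeR), although its last kilobase overlaps Gm20388 on the same strand, so their reads may not be separable. Gabarapl1 rose by 0.29 (50.2 and 54.1 against 44.5 and 41.0, adjusted p = 0.0229 in edgeR). Gabarap had 397 and 386 against 323 and 350 and was not called (0.22, adjusted p = 0.0731 in edgeR), and Map1lc3a was level at 67.1 and 64.2 against 64.7 and 67.2 (-0.01). Gabarapl2 (chromosome 8, 111940703 to 111953612, plus strand) fell relative to the median gene, with 159 and 150 against 229 and 244 (-0.61, SE 0.0766, adjusted p = 0.00155 in edgeR), and it was 0.31 higher per cell. The KO and WT libraries did not overlap in any of these genes except Map1lc3a. With 2 libraries per genotype this is a weak criterion, which Gabarap met without being called. The fall of Gabarapl2 was called whichever library was left out, while the calls of Map1lc3b (0.25 to 0.39) and Gabarapl1 (0.23 to 0.35) were lost without KO-1 or KO-2.

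Sqstm1 and Tfeb went opposite ways. Sqstm1, the p62 receptor that binds ubiquitin-tagged cargo and LC3 (chromosome 11, 50199366 to 50210827, minus strand), had 65.3 and 62.6 scaled CPM in KO against 125 and 122 in WT beta cells, 1.93-fold lower (log2 change -0.95, SE 0.0671, adjusted p = 0.000256 in edgeR, called whichever library was left out). Per cell the genotypes overlapped, at 4.24 and 4.48 UMIs in KO against 4.49 and 4.4 in WT (log2 -0.03, adjusted p = 0.841 in edgeR). Its last kilobase overlaps Mrnip on the other strand, as that of Ctsb overlaps Fdft1 and that of Lamp1 overlaps Grtp1, and use of strand in the counting is not given in the sources used here. Tfeb, the transcription factor, had few counts (320 and 196 UMIs in all KO beta cells against 171 and 185 in all WT beta cells), or 2.07 and 2.01 against 1.35 and 1.47 scaled CPM, and rose by 0.53 (SE 0.133, adjusted p = 0.0204 in edgeR). DESeq2 did not call this rise, and it was lost without KO-1 or KO-2 (0.46 to 0.59). Of the 6 members with TCACGTGA in the promoter window, 5 fell and Atp6v0e rose relative to the median gene. Of all tested members 26 of 58 fell, and of all genes 20.2%. Per cell all 6 were called higher, from 0.50 (Atp6v1a) to 1.33 (Atp6v0e), as were 85.1% of all genes.

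Further genes of these pathways were counted by list. Of 44 lysosomal hydrolase genes that are not members, 21 were lower and 6 higher in KO beta cells (median -0.25), and of 38 genes of the lysosome membrane and of sorting 18 were lower and 6 higher (median -0.19), against 20.2% and 19.1% of all genes. Scpep1, a carboxypeptidase (-0.83), Aga, which trims glycoproteins (-0.78), and Tpp1, a tripeptidyl peptidase (-0.69), fell among the hydrolases, and the retromer genes Vps29 (-0.82) and Vps35 (-0.74) among the sorting genes; per cell these 5 stood between 0.09 and 0.22, so their direction turned. Gm2a, the GM2 activator protein, had 16.2 and 15.9 scaled CPM in KO against 8.87 and 9.44 in WT beta cells (0.81, adjusted p = 0.000354 in edgeR), and Slc17a5, which exports sialic acid, rose by 0.60. Of 31 genes around TFE factors and mTORC1, the kinase that holds TFEB in the cytosol, 13 were lower and 7 higher: Fnip2 and Flcn, partners that act on TFE factors through Rag GTPases, stood at -0.83 and -0.76 (0.09 and 0.16 per cell), and Deptor, an inhibitor of mTOR, at 0.62.

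Of 22 genes of autophagy initiation 9 were higher and 3 lower (median 0.17). All genes gave 19.1% higher and 20.2% lower, the background for each list in this paragraph. Trp53inp1, which binds LC3 proteins, had 30 and 34.7 scaled CPM in KO against 16.2 and 17.7 in WT beta cells (0.93, adjusted p = 0.000617 in edgeR), and the kinase gene Ulk2 had 17.6 and 17.4 against 11.5 and 11.7 (0.59, adjusted p = 0.000705 in edgeR). Of 14 receptors of selective autophagy 6 rose and 4 fell. Stbd1, a glycogen receptor, had 15.8 and 14.6 scaled CPM in KO against 5.31 and 5.28 in WT beta cells (1.52, SE 0.0721, adjusted p = 7.9e-05 in edgeR). Pink1, the kinase that marks damaged mitochondria, had 40.4 and 36.9 against 18.7 and 17.4 (1.10), and Fundc1, a receptor on mitochondria, stood at 0.71. Of 10 genes of ER-phagy, the removal of ER by autophagy, 4 rose and 2 fell, the falls near the share of all genes. Ccpg1, an ER-phagy receptor, had 39.0 and 40.5 against 19.8 and 19.7 scaled CPM (1.01, SE 0.0594, adjusted p = 0.000149 in edgeR), and Ufl1, the UFM1 ligase, 52.3 and 51.8 against 28.8 and 34.2 (0.73). Of 19 fusion genes 3 were higher and 3 lower (15.8% each), below the shares over all genes. Without KO-1 or KO-2 the lower counts were 16 and 14 for hydrolases, 9 and 7 for membrane and sorting and 7 and 5 for TFE factors and mTORC1, and the higher counts were 3 and 3 for initiation, 4 and 5 for selective receptors and 3 and 2 for ER-phagy. Per cell, the median of every list in this paragraph and the one before was above 0.

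**Figure D3:**
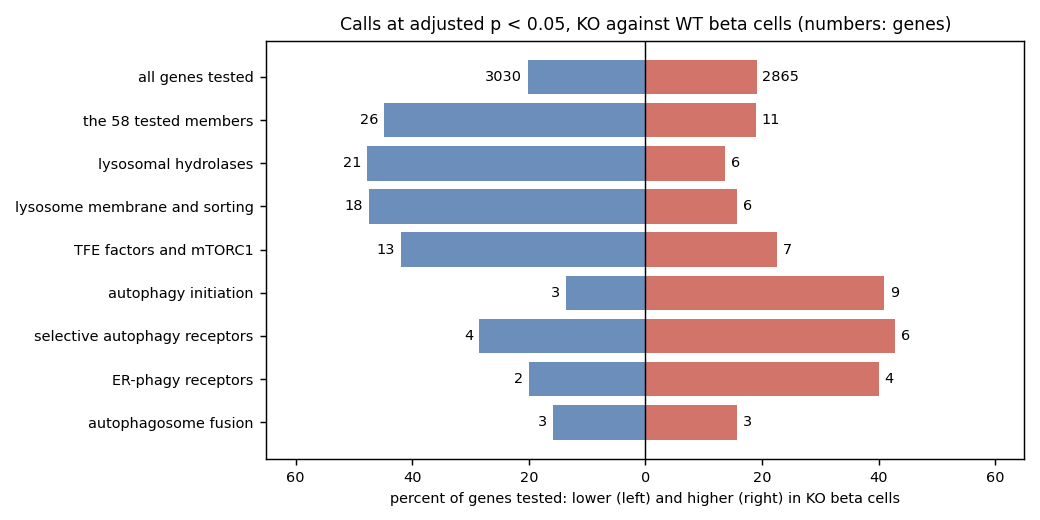
Percent of the genes tested that were called lower (left, blue) and higher (right, red) in KO than in WT beta cells, relative to the median gene, for all genes, the members and 7 further lists; the numbers are genes. Hydrolases, membrane and sorting genes and the members lean to the left, with 21, 18 and 26 lower calls, and autophagy initiation leans to the right, with 9 higher and 3 lower; per cell the median of each of the 7 lists was above 0.

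Alpha and delta cells, which are not the target of the Ins1-driven Cre, gave fewer calls, from fewer cells. In alpha cells 12 of 58 members were lower and 1 higher in KO than in WT, where all genes gave 8.05% lower and 5.35% higher (13.4% called). In delta cells 7 of 56 were lower and none higher, where all genes gave 4.87% lower and 2.3% higher (7.17% called); 3 members were higher at an unadjusted p under 0.05, and limma-voom and DESeq2 called none higher. Per cell edgeR called no member lower in either type, and 51 in alpha (85.8% of all genes, 86% called) and 52 in delta cells (78.8% of all genes, 79% called) were higher; KO alpha and delta cells also held more UMIs (a median of 25935 and 26661 against 17680 and 18814 in alpha, and of 16505 and 18194 against 11454 and 12524 in delta cells). With library size only, 11 were higher and 3 lower in alpha (25% and 1.36% of all genes, 26.4% called) and 3 higher and 1 lower in delta cells (9.08% and 1.23%, 10.3% called). Relative to the median gene, 5 members were lower in all 3 cell types: Atp6v0b, Atp6v1e1, Atp6v1f, Atp6v1g1 and Gabarapl2. The 3 comparisons share the same libraries, and the share of all genes lower in all 3 is not given here. This count therefore has no background beside it. Gabarapl2 had 274 and 256 scaled CPM in KO against 370 and 377 in WT alpha cells (-0.49, adjusted p = 0.0091 in edgeR) and 331 and 322 against 423 and 434 in delta cells (-0.39, adjusted p = 0.0149 in edgeR). Atp6v1f, a central stalk subunit, had 251 and 226 against 318 and 328 in alpha cells (-0.44) and 370 and 360 against 468 and 481 in delta cells (-0.38). In neither gene did the genotypes overlap.

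Alpha cells also had calls that beta cells lacked or had in the other direction. Map1lc3a had 75.3 and 60.1 scaled CPM in KO against 105 and 104 in WT alpha cells (-0.61, adjusted p = 0.0119 in edgeR), and Map1lc3b had 106 and 106 against 137 and 129 (-0.33, adjusted p = 0.0197 in edgeR). Atg10 stood at -0.39 and Atp6v0e at -0.26 (adjusted p = 0.0413 in edgeR), while Npc2, lower in both types, stood at -0.32. Atg7, the activating enzyme of conjugation, was the member that rose (6.92 and 6.07 against 4.61 and 3.98, 0.61, adjusted p = 0.0419 in edgeR). In delta cells Atp6ap2 had 214 and 192 against 267 and 305 scaled CPM (-0.50, adjusted p = 0.0149 in edgeR), Atp6v0b and Lamp1 stood at -0.36 each and Atp6v1g1 at -0.37. All of these falls turned positive per cell, with values of 0.15 (Map1lc3a) to 0.52 in alpha and 0.21 to 0.35 in delta cells. These calls rest on few libraries. In alpha cells the falls lost their calls without KO-1 or without KO-2, where few genes of any kind were called. Some were lost without WT-1 or without WT-2. The rise of Atg7 was lost without each library in turn (0.49 to 0.72). In delta cells the falls lost their calls without WT-2, where fewer of all genes were called lower too, and kept them without KO-1. All called members kept their sign in each of these fits. The macrophage marker sum was 35.3 and 103 scaled CPM in KO against 48.5 and 33.2 in WT alpha cells, and 90.1 and 215 against 131 and 133 in delta cells, so it was high in KO-2; its part in these results was not tested.

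The difference between the effects was tested directly, in a fit of all 12 sums with library as a block, and members were called in both directions. The KO effect was lower in beta than in alpha cells for 15 of 58 members and higher for 10, where all genes gave 11.9% lower and 12.3% higher (24.2% called). Against delta cells it was lower for 12 and higher for 8, where all genes gave 8.11% and 9.08% (17.2% called). In both comparisons the members' share of lower calls was well above that of all genes, and their share of higher calls was nearer to it. The fall of Atp6ap2 was 1.24 log2 units deeper in beta than in alpha cells (-1.24, SE 0.0758, adjusted p = 2.1e-07 in edgeR) and 0.92 deeper than in delta cells (-0.92, adjusted p = 4.0e-06 in edgeR). Ctsb differed by -1.09 from alpha (adjusted p = 6.0e-07 in edgeR) and by -1.20 from delta cells (adjusted p = 1.4e-06 in edgeR): it had 145 and 166 scaled CPM in KO against 147 and 138 in WT alpha cells, and 118 and 121 against 106 and 101 in delta cells. Sqstm1 differed by -0.80 and -0.62, and Atp6ap1 by -0.58 and -0.51, from alpha and delta cells in that order. The further named differences were those of Lamp2 (-0.53) and Atp6v1g1 (-0.45) from alpha cells and of Atp6v1a (-0.73) and Npc2 (-0.49) from delta cells. Both comparisons use the same beta cell sums.

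The members that rose more in beta cells included the e subunits and LC3B. Atp6v0e differed by 0.69 from alpha (adjusted p = 7.5e-05 in edgeR) and by 0.62 from delta cells (adjusted p = 0.000333 in edgeR), Atp6v0e2 by 0.58 and 0.46, Map1lc3b by 0.67 and 0.52, and Atg13 by 0.84 and 0.72. Gabarap, not called within beta cells, differed by 0.38 and 0.40, Map1lc3a by 0.64 from alpha cells and Ctso by 0.52 from delta cells. Per cell the difference from alpha cells kept its sign for all 25 members called and its call for 21, that from delta cells kept its sign for all 20 and its call for 14, and the 18 higher differences were called under each of the 3 scalings. Lower differences were called under all 3 scalings for Atp6ap2 and Ctsb against alpha cells and for Ctsb against delta cells; scaling by library size alone put the median gene at 0.67 and 0.71 and turned the sign of 11 of the 15 and 9 of the 12, Atp6ap1 (0.09 and 0.22) among them. Under that scaling 43 members were higher and 2 lower against alpha cells (62.9% and 1.78% of all genes, 64.7% called) and 46 higher and 1 lower against delta cells (59.7% and 1.04%, 60.7% called). Per cell they were 14 and 11 against alpha cells (16% and 6.44%, 22.4% called) and 14 and 6 against delta cells (16% and 3.56%, 19.6% called). Of the 24 named differences, 23 were called whichever library was left out, and that of Atp6v0e2 from delta cells was lost without WT-1, where 5 members were higher. Without KO-2 the counts against alpha cells were 14 lower and 9 higher and against delta cells 11 lower and 8 higher.

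**Figure D4:**
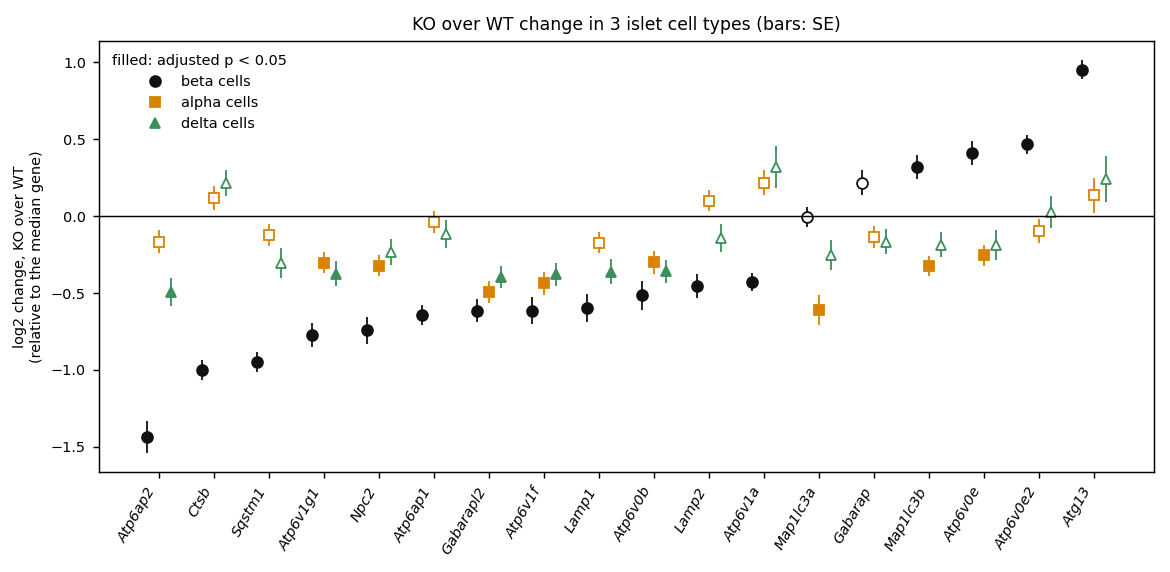
Log2 change of KO over WT, relative to the median gene, in beta (circles), alpha (squares) and delta cells (triangles) for 18 members, with SE bars; filled symbols were called at an adjusted p under 0.05. Atp6ap2, Ctsb and Sqstm1 fall in beta cells to -1.43, -1.0 and -0.95, well below their alpha values, and Map1lc3b, Atp6v0e, Atp6v0e2 and Atg13 are highest in beta cells; per cell only the fall of Atp6ap2 in beta cells stays called.

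Levels in WT islets set the background for these differences. WT beta cells exceeded WT alpha cells in 34 of 58 members and were below them in 5, where all genes gave 32.1% higher and 30% lower (62.1% called). Against WT delta cells 34 members were higher and 7 lower, where all genes gave 29% and 24.8% (53.8% called). On the scale shared by the 12 sums, Atp6ap2 had 291 and 346 CPM in WT beta cells, 112 and 126 in WT alpha cells and 192 and 223 in WT delta cells, so the 3 types did not overlap. KO beta cells, at 123 and 115 CPM, were near WT alpha cells. Atp6v1a had 74.2 and 76.1 CPM in WT beta cells, 21.9 and 20.3 in WT alpha cells and 29.5 and 40.8 in WT delta cells (log2 1.83 over alpha and 1.08 over delta cells). Sqstm1 stood 1.46 higher in WT beta than WT alpha cells and 0.60 higher than in WT delta cells, and Atp6v1e1 1.07 and 1.0 higher.

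Cathepsins differed between WT cell types. Ctsz, an exopeptidase, had 35 and 41.1 CPM in WT beta cells, 299 and 343 in WT alpha cells and 58.5 and 62.6 in WT delta cells (-3.08 against alpha and -0.67 against delta cells). Ctsh had 2.90 and 2.54 CPM in WT beta cells, 2.56 and 2.32 in WT alpha cells and 25.8 and 24.1 in WT delta cells (-3.20 against delta cells), and the beta and alpha libraries overlapped. Ctsk was called higher in WT beta than in WT delta cells (adjusted p = 0.0208 in edgeR), and with library size only it was not called. It had 68 and 76 UMIs in WT beta against 1 and 0 in WT delta cells. The library sizes were 166922558 and 178691782 in WT beta against 5408160 and 6970917 in WT delta cells. In delta cells alone Ctsk was below the filter, and counts this low cannot decide whether the types differ. Ctsl and Ctso were also lower in WT beta than in WT alpha (-0.39 and -0.23) and WT delta cells (-0.62 and -0.77). Ctsb had 160 and 163 CPM in WT beta, 141 and 133 in WT alpha and 76.5 and 73.5 in WT delta cells, and Lamp2 stood 0.87 above WT delta cells. Npc2 was lower in WT beta than in WT alpha cells (-0.62) and higher than in WT delta cells (0.57). Neither Ctsz nor Ctsh was called between genotypes in the type that held most of it, with 327 and 303 CPM of Ctsz in KO against 299 and 343 in WT alpha cells and 21.5 and 18.9 CPM of Ctsh in KO against 25.8 and 24.1 in WT delta cells (adjusted p = 0.923 and 0.171 in edgeR).

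Directions against other cell types depend on scaling. With library size only, where insulin fills the WT beta totals, 45 of 58 members were lower and 4 higher in WT beta than in WT alpha cells (74.9% and 8.87% of all genes, 83.8% called), and 56 were lower and 0 higher than in WT delta cells in edgeR (83.1% and 3.9%, 86.9% called). Per cell 46 were higher and 2 lower against alpha cells (54.8% and 13.4%, 68.2% called) and 48 higher and 1 lower against delta cells (64.2% and 10.2%, 74.4% called). Of the 34 higher members in each comparison, 28 against alpha and 33 against delta cells turned sign under a scaling. Called the same way under all 3 scalings were Atp6ap2, Atp6v1a, Atp6v1e1 and Sqstm1 (higher) and Ctsz and Npc2 (lower) against alpha cells, and Ctsh (lower) against delta cells. Ctsl and Ctso against alpha cells turned to 0.01 and 0.16 per cell. The small differences of Atg12 from alpha cells (-0.24) and Atg14 and Atg3 from delta cells (-0.42 and -0.23) were lost without WT-1, the first 2 also without WT-2.

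**Figure D5:**
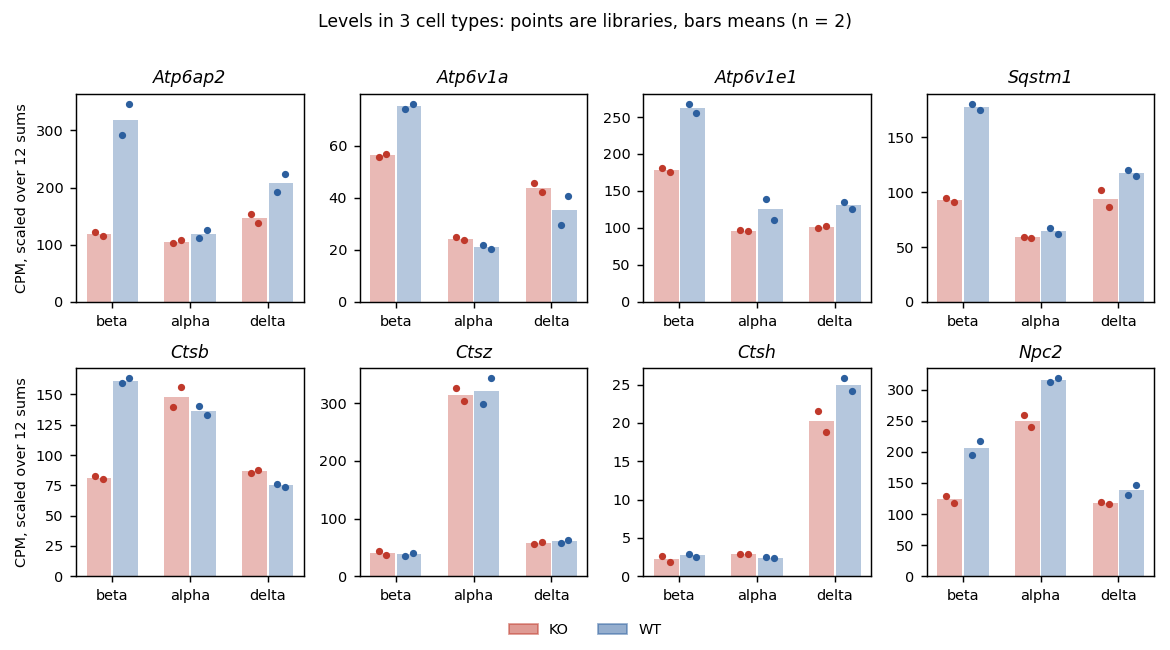
CPM on a scale shared by all 12 sums for 8 members in beta, alpha and delta cells, KO left of WT in each type; points are libraries and bars means (n = 2). Ctsz lies between 299 and 343 CPM in alpha cells of both genotypes and Ctsh averages 20.2 CPM in KO and 25.0 CPM in WT delta cells, while Atp6ap2 and Sqstm1 are highest in WT beta cells.

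The remaining 8 members were below the filter in beta cells. Atp6v0a4, Atp6v0d2 and Atp6v1c2, pump subunits of other tissues, had 0 to 8 UMIs per library in all beta cells, and Atp6ap1l, Atg4a-ps, Ctse and Ctsw had 0 to 6. Atg9b had 4 and 12 UMIs in KO against 1 and 3 in WT beta cells. In alpha and delta cells these 8 genes had 0 to 3 UMIs per library, and Ctsc and Ctsk were also below the filter in delta cells.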

How the data were processed

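Counts were deposited as UMIs per gene and cell barcode for 2 KO and 2 WT libraries, made by the authors with Cell Ranger 3.0.0 on mm10, with Seurat 2.3.4 also named, per the submitters' processing notes; the annotation and use of strand are not given in the sources used here. Libraries held 2483 to 5951 barcodes, 35 of which occurred in more than 1 library. All had at least 500 genes and at most 20% mitochondrial UMIs; Scrublet (scanpy 1.11.5) doublets at 0.8% per 1000 cells (150, 49, 283 and 273 in KO-1, KO-2, WT-1 and WT-2) and cells in both the alpha and delta gates (2, 1, 3 and 1) were left out. Raw UMIs were summed per library and cell type and tested with edgeR 4.0.16 (R 4.3.3; TMM, filterByExpr, quasi-likelihood test, adjusted p under 0.05 by Benjamini-Hochberg over all genes tested), per type and, for differences between types, over all 12 sums with library as a block. Alternatives were other scalings (RLE, library size only, number of cells), no filter or a mean of 20 counts, limma-voom (limma 3.58.1), DESeq2 1.42.0, thinning, other gates and each library left out. On simulated counts with 200 genes changed by 1 log2 unit, 96.0%, 92.5% and 83.5% were recovered in the beta, alpha and delta comparisons (14912, 12876 and 11661 genes), with 4.95%, 3.14% and 3.47% of calls false. The simulation gave both genotypes the same mean profile and all genes a common dispersion. Its rates therefore do not cover the shift in insulin share or the smaller changes in these data. Replicate libraries differed beyond counting error (chi-square per degree of freedom 48.5 in KO and 33.9 in WT).

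Members and lists were chosen with earlier results of these data known. Named genes were, per role group in beta cells, up to 3 members called each way with the smallest p and the member of highest level; in the other comparisons up to 6 each way; up to 3 each way of every further list; and Sel1l. Other members are named to account for the rest of a group, and were chosen after their values were seen. Promoter sequences are RefSeq's, and gene coordinates are those of GENCODE vM21 (GRCm38). Markers of endothelial cells (16.3 and 9.27 against 7.96 and 6.16 scaled CPM in KO against WT beta cells), stromal cells (3.15 and 3.49 against 5.55 and 2.26), Schwann cells (9.01 and 8.96 against 6.21 and 7.44) and acinar cells (0.362 and 0.655 against 0.300 and 0.406) were also summed.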

Additional observations from a re-analysis of the deposited data

Results flagged for a closer look

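The differences listed here drew attention because the KO effects in 2 cell types of the same libraries differed by a direct test, the interaction term of edgeR's quasi-likelihood fit over all 12 sums. Relative to alpha cells, the KO effect in beta cells was higher for 10 members and lower for 15. Atg13 (0.84), Atp6v0e (0.69), Map1lc3b (0.67), Map1lc3a (0.64), Atp6v0e2 (0.58) and Gabarap (0.38) led the higher log2 differences, and Atp6ap2 (-1.24), Ctsb (-1.09), Sqstm1 (-0.80), Atp6ap1 (-0.58), Lamp2 (-0.53) and Atp6v1g1 (-0.45) the lower ones. Relative to delta cells it was higher for 8 members and lower for 12. Atg13 (0.72), Atp6v0e (0.62), Map1lc3b (0.52), Ctso (0.52), Atp6v0e2 (0.46) and Gabarap (0.40) led the higher differences, and Ctsb (-1.20), Atp6ap2 (-0.92), Atp6v1a (-0.73), Sqstm1 (-0.62), Atp6ap1 (-0.51) and Npc2 (-0.49) the lower ones. The macrophage marker sum was highest in KO-2 among alpha and delta cells, and its part in these differences was not tested.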

How the results depend on the processing

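The counts of members called depended most on scaling. With library size only, members called higher and lower were 50 and 1 in beta, 11 and 3 in alpha and 3 and 1 in delta cells, 43 and 2 in the difference of beta from alpha and 46 and 1 in that from delta cells, 4 and 45 in WT beta against WT alpha and 0 and 56 against WT delta cells. With sums scaled by number of cells they were 50 and 1, 51 and 0, 52 and 0, 14 and 11, 14 and 6, 46 and 2 and 48 and 1 in the same order. Without the filter on low counts 4 members were higher in KO alpha cells, with DESeq2 0 were, without the library term 6 were higher in the difference from alpha cells, and with a mean of at least 20 counts 8 were lower in WT beta than WT alpha cells; the cause was not tested. Over the fits that leave out 1 library, the counts higher and lower ranged over 2 to 10 and 11 to 25 in beta, 0 to 1 and 0 to 6 in alpha, 0 to 1 and 0 to 9 in delta cells, 7 to 9 and 14 to 16 and 5 to 8 and 9 to 11 in the differences from alpha and delta cells, and 28 to 34 and 4 to 6 and 28 to 35 and 4 to 8 for WT beta against WT alpha and WT delta cells; these fits assume that the lone library of a genotype varies like the other genotype's. Of the 37 calls in beta cells, 37 stayed with RLE scaling, 36 with limma-voom, 32 with DESeq2, 36 with insulin at 20% or more of UMIs and 33 with Gcg, Sst and Ppy each under 1%. Replicate numbers did not pair the libraries: the correlation of their deviations was 0.105 in beta, -0.121 in alpha and -0.038 in delta cells, and a replicate block left 35 of 37 calls in beta, 13 of 13 in alpha and 7 of 7 in delta cells; a crossed replicate block in alpha cells, chosen after seeing the data, left 13. Calls of single genes are limited by 2 libraries per genotype. Depth limits them too for genes such as Tfeb, Ctsk, Ctsc, Ctss, Atg4c, Atg4a, Npc1 and Atp6v0c. Each of these had under 1000 UMIs in every beta cell sum.

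Of the genes named by the rule, these log2 values turned sign with library size only; counts over all called members stand with the comparisons. In KO against WT beta cells they were Becn1 0.63, Atg3 0.55, Atg16l1 0.70, Atp6ap1 0.27, Atp6v0a1 0.46, Atp6v0b 0.40, Atp6v0d1 0.63, Atp6v1h 0.33, Atp6v1g1 0.14, Atp6v1e1 0.34, Ctsa 0.60, Ctsl 0.52, Gabarapl2 0.29, Npc2 0.17, Lamp1 0.32, Lamp2 0.45, Tpp1 0.21, Scpep1 0.0739, Aga 0.13, Vps35 0.17, Vps29 0.0899, Gnptg 0.31, Fnip2 0.0781, Flcn 0.14, Eif4ebp1 0.29, Prkab1 0.44, Uvrag 0.52, Prkaa1 0.69, Tollip 0.50, Optn 0.45, Phb2 0.57, Tex264 0.61, Retreg3 0.66, Vps18 0.31, Arl8b 0.55, Arl8a 0.72, Sel1l 0.40. In the KO effect in beta minus alpha cells they were Atp6ap1 0.0931, Lamp2 0.14, Atp6v1g1 0.22. In the KO effect in beta minus delta cells they were Sqstm1 0.10, Npc2 0.24, Atp6ap1 0.22. In WT beta against WT delta cells they were Ctsb -0.25, Lamp2 -0.49, Atp6v1e1 -0.36, Atp6v1b2 -0.56, Atp6v0a1 -0.53, Atp6v1a -0.28. With sums scaled by number of cells, in KO against WT beta cells they were Becn1 0.65, Atg3 0.55, Atg16l1 0.72, Atp6ap1 0.28, Atp6v0a1 0.48, Atp6v0b 0.41, Atp6v0d1 0.64, Atp6v1h 0.35, Atp6v1g1 0.15, Atp6v1e1 0.36, Ctsa 0.61, Ctsl 0.53, Gabarapl2 0.31, Npc2 0.18, Lamp1 0.33, Lamp2 0.47, Tpp1 0.22, Scpep1 0.0921, Aga 0.14, Vps35 0.18, Vps29 0.0995, Gnptg 0.32, Fnip2 0.091, Flcn 0.16, Eif4ebp1 0.30, Prkab1 0.45, Uvrag 0.53, Prkaa1 0.71, Tollip 0.51, Optn 0.47, Phb2 0.58, Tex264 0.63, Retreg3 0.67, Vps18 0.33, Arl8b 0.57, Arl8a 0.73, Sel1l 0.42. In KO against WT alpha cells they were Gabarapl2 0.28, Map1lc3a 0.155, Atp6v1f 0.33, Map1lc3b 0.45, Npc2 0.45, Atg10 0.38. In KO against WT delta cells they were Atp6ap2 0.21, Gabarapl2 0.32, Atp6v1f 0.34, Atp6v0b 0.35, Atp6v1g1 0.34, Lamp1 0.35. In WT beta against WT alpha cells they were Ctsl 0.0055, Ctso 0.16, Atg12 0.15. In WT beta against WT delta cells they were Atg3 0.37, Atg14 0.19. Sel1l in delta cells turned to -0.02 without KO-1 and to -0.0354 without WT-2.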
